A study of Mus musculus with 4 samples.

Results

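The cells described here are 158 of 36287 filtered cell barcodes from CD45+ sorted mouse mammary tumour cells, selected on Cd209a and MHC class II transcripts. A barcode was taken when it held at least 2 UMIs of Cd209a, at least 20 of H2-Ab1 and H2-Aa together, fewer than 2 of Xcr1 and Clec9a together, fewer than 10 of C1qa, C1qb and C1qc together and 0 of Cd3d, Cd3e and Cd3g. Barcodes with both Ccr7 and Fscn1 detected were left out. Cd209a lies on the minus strand at chr8:3743397-3748984 of mm10, and Siglech and Ddit4, named below, lie at chr7:55768178-55778925 and chr10:59949669-59951834 (GENCODE mouse release 21). Because these measured values chose the cells, the levels of those genes are given as a description and support nothing. A UMI is 1 counted RNA molecule, and CPM below means the UMIs of a gene per 1000000 UMIs summed over the cells named.

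Conventional type 2 dendritic cells, the type in whose name the selection was made, take up antigen and present it on MHC class II to CD4 T cells. They depend on the growth factor receptor Flt3, and many carry the C-type lectins Cd209a, Clec10a and Mgl2. Their markers overlap with those of dendritic cells derived from monocytes, which carry Ly6c2 and Fcgr1. Plasmacytoid dendritic cells, or pDCs, are a separate lineage that depends on Flt3 too, makes type I interferon and is marked by Siglech, Ccr9, Klk1 and Cox6a2.

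The tumours were 2153L, a line from a genetically engineered mouse model, transplanted into female Balb/c hosts at the mammary fat pad. The groups were treated for 8 days with vehicle, with 150 mg/kg of ORIN1001, with 20 mg/kg of docetaxel, or with both drugs at those doses, which is called the combination. ORIN1001 inhibits the RNase of IRE1, the endoplasmic reticulum (ER) sensor that splices Xbp1 mRNA, and docetaxel stabilises microtubules. The sources used here give neither the age of the hosts nor how many mice went into a library. With 1 library in each group, animals cannot be told apart from treatment, no test was run, and all 95% intervals cover counting error only.

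The libraries held 8343 to 10239 filtered cells, with median depths of 3916 to 4538 UMIs per cell, and any pair of libraries shared 95 to 128 barcode sequences. Neutrophils, by S100a8 and S100a9, made up 41.1% of vehicle cells, 54.0% of ORIN1001 cells, 31.7% of docetaxel cells and 20.5% of combination cells. The selected cells were deeper than the libraries, with medians of 14621, 17371.5, 13424 and 14379 UMIs in vehicle, ORIN1001, docetaxel and combination. Where 4 values follow each other below, they stand in that order.

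Only part of the selected cells carried transcripts that mark type 2 dendritic cells. Clec10a or Mgl2 was detected in 105 cells (66.5%) and Flt3 or the conventional dendritic cell factor Zbtb46 in 128 (81.0%). Clec10a stood at 156 CPM in the selected cells against 24.7 CPM in the 235 cells taken as type 1 dendritic cells by Xcr1 and Clec9a, and Mgl2 at 115 against 14.2 CPM. Flt3, at 130 CPM, was lower than in the type 1 dendritic cells, at 201 CPM. Clec10a was found in 55.7% of the selected cells in 0.283% of neutrophils and in 6.02% of macrophages, whose median depths were 3157 and 19846 UMIs against 13905. H2-DMb2, which encodes a chain of the chaperone that loads MHC class II, was at 1130 CPM and also at 554 CPM in macrophages. Esam, a marker in the wider type 2 list, was at 0, as were the T cell receptor chains Trbc1 and Trbc2, the B cell marker Ms4a1 and the mast cell marker Cpa3.

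The data went against 1 name for all of them, so they are called Cd209a-selected cells here. Siglech, the pDC lectin, was detected in 63 of the 158 (39.9%), against 0.283% of neutrophils, 5.45% of macrophages and 0.937% of T cells, the last with a median depth of 5494 UMIs. The summed UMIs of Siglech, Ccr9, Klk1 and Cox6a2 split the cells with few in between: 89 cells had 0, 14 had 1 to 4, 8 had 5 to 19 and 47 had 20 or more. With a boundary of 5 UMIs, set after these values were seen, 55 cells (34.8%) are called cells with pDC genes. The other 103 were divided by monocyte and macrophage genes: 71 carried monocyte genes (at least 2 UMIs summed over a short set of monocyte and macrophage genes that includes Ly6c2, Fcgr1 and Adgre1, or at least 3 of C1q) and 32 were low in both sets.

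**Figure D1:**
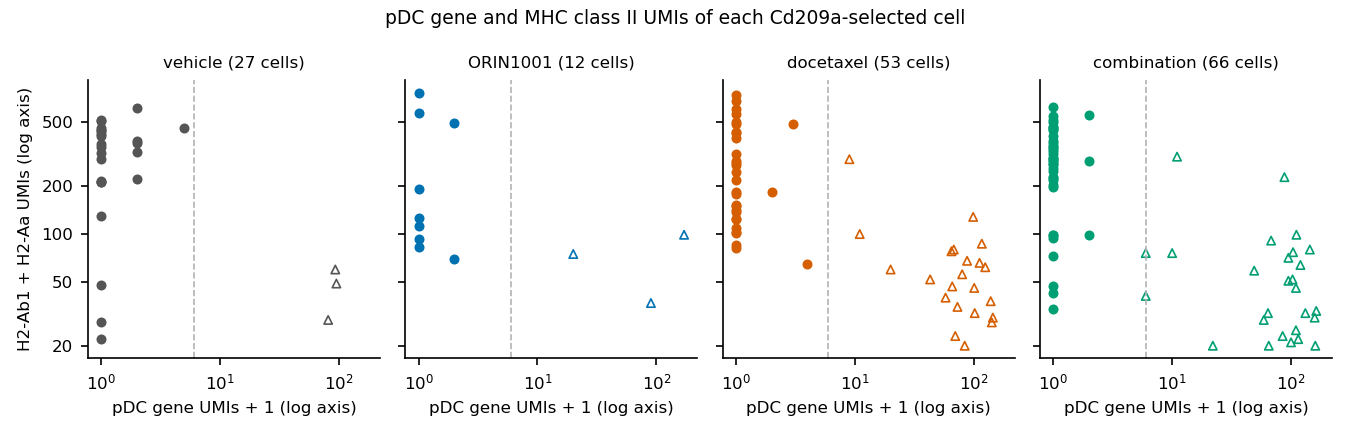
UMIs of H2-Ab1 and H2-Aa (log axis) against UMIs of Siglech, Ccr9, Klk1 and Cox6a2 plus 1 (log axis), with 1 point per Cd209a-selected cell and 1 panel per library. Open triangles right of the dashed line are the 55 cells with pDC genes, which sit at the lower MHC class II counts.

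The cells with pDC genes were close to the pDC-gene cells that the selection did not take in several transcripts, but not in all. Klk1, a kallikrein, was at 2690 CPM in them, at 0 in the other 103, and at 2760 CPM in the 457 cells with 20 or more pDC-gene UMIs outside the selection. Siglech was at 1980 CPM against 2030 CPM outside. Klk1 and Siglech belong to the sum that chose both sets, so their levels are a description and support nothing. Of genes that did not define them, Irf8, a transcription factor of pDCs and type 1 dendritic cells, was at 2880 CPM (3270 CPM outside, 130 CPM in cells with monocyte genes and 44.9 CPM in cells low in both). Dntt, the template-independent DNA polymerase, was at 335 CPM and at 0 in both other sets. Tlr7, the endosomal receptor for single-stranded RNA, was at 164 CPM against 2.52 and 0 CPM. Outside the selection Dntt was at 259 CPM and Tlr7 at 149 CPM. Other genes differed from the cells outside: Apoe was at 105 against 698 CPM, Id2 at 10.4 against 119 CPM and H2-DMb2 at 350 against 123 CPM.

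Clec10a and Flt3, markers given for type 2 dendritic cells, were both highest in the pDC-gene cells. Clec10a was at 240 CPM in cells with pDC genes, 124 CPM in cells with monocyte genes and 112 CPM in cells low in both, and at 224 CPM in the pDC-gene cells outside the selection. Flt3 was at 289, 45.3 and 117 CPM, with 210 CPM outside, and was detected in 94.5%, 40.8% and 62.5% of the 3 sets. Zbtb46 was lowest in the pDC-gene cells, at 40.0, 72.2 and 101 CPM, with 8.43 CPM outside. Cd209a itself was present in pDC-gene cells at large. Any UMI of it was found in 0.0522% of neutrophils. Macrophages were taken only with fewer than 2 UMIs of Cd209a, so their share with any UMI, 0.276%, was limited by that choice. Of 504 cells with 20 or more pDC-gene UMIs, 132 (26.2%) had at least 2 UMIs of Cd209a. By library that share was 12.2%, 23.1%, 29.3% and 30.3%, so it was higher in the docetaxel and combination libraries than in vehicle, where its 95% interval (Clopper-Pearson here and below) was 6.26% to 20.8%. Of the 132, 84 also had 20 UMIs of H2-Ab1 and H2-Aa.

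The remaining 103 cells ranged between monocyte and conventional dendritic cell transcripts. Among the 71 with monocyte genes, Lyz2, the macrophage and monocyte lysozyme, was at 2170 CPM against 98.8 CPM in the 32 low in both, and Csf1r, the receptor for the macrophage growth factor, at 327 against 180 CPM. Ccr2, the receptor that brings monocytes into tissue, stood at 515 against 202 CPM. The 32 cells low in both had more Kit (153 against 28.5 CPM), a progenitor and dendritic cell receptor, more Dpp4 (177 against 92.3 CPM) and more of the adhesion molecule Epcam (512 against 120 CPM). Cd86, the ligand of CD28, was at 292, 197 and 5.93 CPM in cells low in both, with monocyte genes and with pDC genes. Cd74, the invariant chain of MHC class II, was at 32300, 25100 and 9260 CPM in the same order, and the median cell had 308.5, 275 and 51 UMIs of H2-Ab1 and H2-Aa. The selection required 20 of those UMIs.

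**Figure D2:**
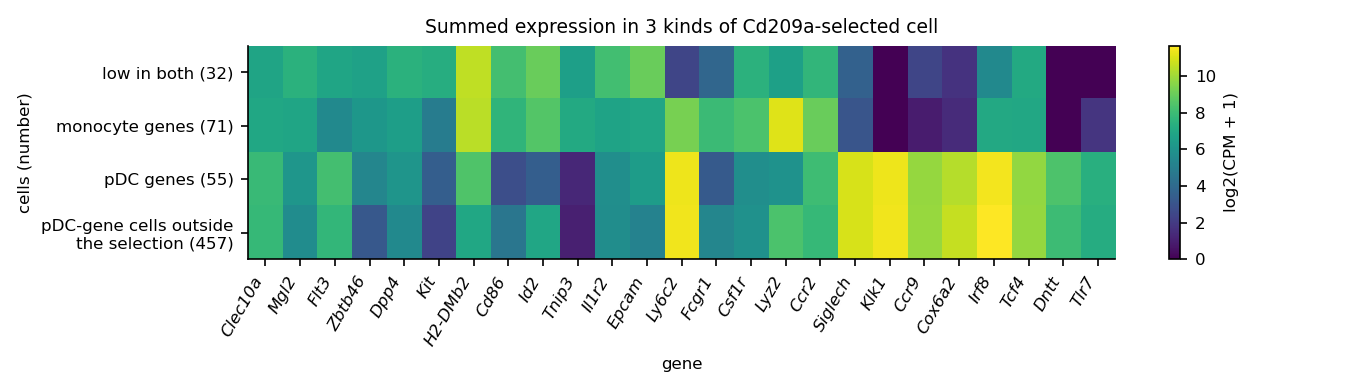
Heat map of log2(CPM + 1) for 25 genes (columns) in the 32 cells low in both gene sets, the 71 with monocyte genes, the 55 with pDC genes and the 457 pDC-gene cells outside the selection (rows). The last 2 rows look alike from Siglech to Tlr7, and Klk1 and Dntt are at 0 in the first 2.

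Cells on both sides of the limit on Cd209a had similar shares of the other markers. Cells with 1 UMI that met all other conditions numbered 54, of which 61.1% had Flt3, 46.3% Clec10a and 35.2% pDC genes. Among the 29 with 2 UMIs, those shares were 55.2%, 55.2% and 34.5%. The 106 cells with 4 or more UMIs made up most of the selection, and the highest cell had 68. Neutrophil markers reached 20 UMIs in 14 selected cells, and Krt8 with Krt18 reached 10 in 2.

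The selected cells were a larger share of the libraries from docetaxel-treated tumours. Their numbers were 27, 12, 53 and 66, which was 0.264% (0.174 to 0.383), 0.137% (0.0708 to 0.239), 0.635% (0.476 to 0.83) and 0.738% (0.571 to 0.938) of filtered cells. The share was 2.41-fold higher in docetaxel than in vehicle (log2 ratio 1.27, interval 0.57 to 1.99) and 2.8-fold higher in the combination (1.48, 0.82 to 2.19). Docetaxel and the combination differed by 0.22 (-0.33 to 0.77), and ORIN1001 was lower than vehicle by a log2 ratio of -0.94 (-2.06 to 0.08). Those last intervals include 0. With every cell thinned to 2000 UMIs only 11, 3, 13 and 7 cells met the selection, and the ratio of the combination to vehicle turned to -0.33. Neutrophils took a different part of each library, so the share was also taken of cells that were not neutrophils: it was 0.448%, 0.298%, 0.93% and 0.929%, with log2 ratios to vehicle of -0.59 (-1.7 to 0.44), 1.05 (0.36 to 1.78) and 1.05 (0.39 to 1.76). Docetaxel and the combination were level on that base.

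Most of the added cells were those with pDC genes. They numbered 3, 3, 22 and 27, or 0.0293%, 0.0342%, 0.264% and 0.302% of filtered cells, and made up 11.1% of the selection in vehicle against 41.5% in docetaxel and 40.9% in the combination. Their log2 ratios to vehicle were 0.23 (-2.68 to 3.13), 3.17 (1.44 to 5.55) and 3.36 (1.66 to 5.73). The pDC-gene cells outside the selection, 87, 37, 128 and 205 in number, had log2 ratios of -1.01 (-1.6 to -0.44), 0.85 (0.45 to 1.26) and 1.43 (1.06 to 1.81). The selection took 3.33%, 5.13%, 12.9% and 10.1% of all cells with 20 or more pDC-gene UMIs. In those cells the median of H2-Ab1 and H2-Aa was 10.5 UMIs in vehicle, under the limit of 20. It was above 20 in the other libraries, at 25.5 in the combination. With at least 2 UMIs of Cd209a, 5 of 11, 7 of 9, 28 of 43 and 44 of 69 of them reached that limit. The part of these limits in the ratios, and the difference between the 2 sets of pDC-gene cells, were not tested.

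Cells with monocyte genes numbered 13, 6, 22 and 30, with log2 ratios to vehicle of -0.89 (-2.57 to 0.61), 1.05 (0.0 to 2.17) and 1.4 (0.42 to 2.46). Of the type 2 markers other than Cd209a, the 32 cells low in both had the most Mgl2 and H2-DMb2 of the 3 sets. Their Flt3 lay in between and their Clec10a was the lowest, so they are not named as type 2 dendritic cells. These 32 cells numbered 11, 3, 9 and 9. As a share of filtered cells that was 0.107%, 0.0342%, 0.108% and 0.101%. The log2 ratios were -1.65 (-4.13 to 0.27), 0.01 (-1.44 to 1.41) and -0.09 (-1.54 to 1.31), so at these counts no difference from vehicle could be seen, and differences of more than 2-fold either way remain inside the intervals. For all 103 cells without pDC genes the log2 ratios were -1.19 (-2.48 to -0.03), 0.66 (-0.15 to 1.5) and 0.9 (0.13 to 1.69).

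**Figure D3:**
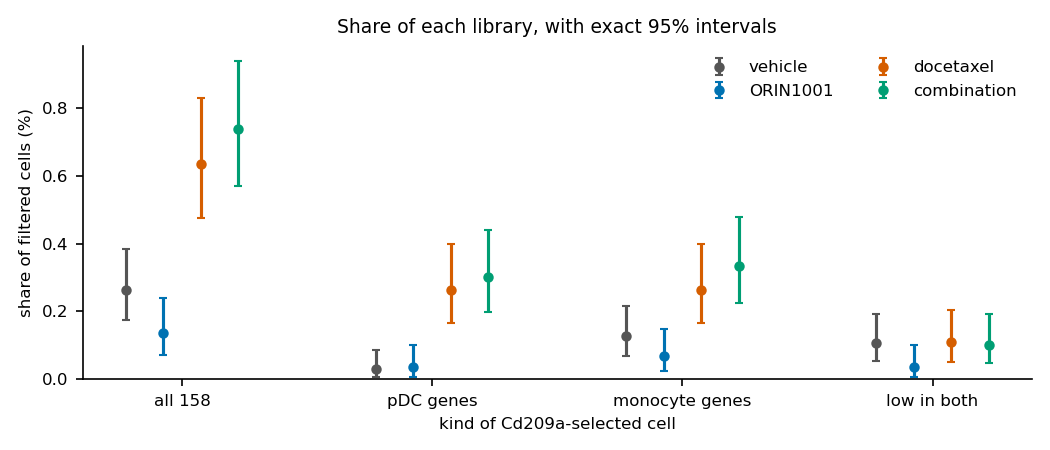
Share of filtered cells (%) in each library for all 158 Cd209a-selected cells and for the 3 sets within them, with exact 95% intervals as bars. The docetaxel and combination points lie above vehicle for all cells and for cells with pDC genes, while the cells low in both sit at about 0.1% in vehicle, docetaxel and combination.

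Type 1 dendritic cells had a similar pattern. They numbered 40, 32, 70 and 93, and their share had log2 ratios to vehicle of -0.1 (-0.81 to 0.61), 1.1 (0.52 to 1.7) and 1.41 (0.86 to 1.98). There were 0.675, 0.375, 0.757 and 0.71 Cd209a-selected cells per type 1 dendritic cell. Mature dendritic cells, with Ccr7 and Fscn1, numbered 22, 14, 63 and 18 and were lower in the combination than in docetaxel, with a log2 ratio of -1.91 (-2.75 to -1.13).

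Gene by gene, the comparison rests on 380942, 183467, 731884 and 1015859 summed UMIs. A gene was counted when it had at least 30 UMIs in the library with the higher CPM, and called when the ratio was 2-fold or more. Against vehicle, 239 of 3421 genes (6.99%) were called higher and 92 (2.69%) lower in docetaxel, and 290 of 4086 (7.1%) higher and 100 (2.45%) lower in the combination. In ORIN1001, 43 of 1789 genes (2.4%) were called higher and 145 (8.11%) lower. Between the combination and docetaxel, 81 of 4820 (1.68%) were higher and 56 (1.16%) lower in the combination. The vehicle library is shared by 3 of these comparisons and the docetaxel library by a pair of them. The median of all counted genes was not 0: it was -0.14 for ORIN1001, 0.15 for docetaxel, 0.22 for the combination and 0.06 between the combination and docetaxel. The limit of 30 UMIs is a lower CPM in the library with more summed UMIs, so genes higher there are counted more readily. In each comparison the median and the larger number of calls lay on the side of that library. The limit holds for the gene lists below as well, and its part in the counts was not tested.

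The change in makeup enters these ratios, so each was also computed without the cells with pDC genes, a choice made after the data were seen. The called shares were then 2.55% higher and 11.4% lower for ORIN1001 (1488 genes), 3.84% and 2.71% for docetaxel (2550 genes), 3.88% and 2.64% for the combination (3065 genes), and 2.45% and 1.89% between the combination and docetaxel (3394 genes). In each comparison the larger share again lay on the side of the library with more summed UMIs. Single cells also weigh heavily. Of the 16 genes with the largest ratios in each comparison, 14, 11, 5 and 10 took over 50% of their UMIs in the higher library from 1 cell, for ORIN1001, docetaxel and the combination to vehicle and the combination to docetaxel. Where 1 cell held over 50% of the UMIs behind a difference described below, its share is given.

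Among the lectins and receptors, Cd209a, on which the cells were chosen, was at 788, 365, 690 and 616 CPM, lowest in ORIN1001. Clec10a, which binds galactose-type sugars, was at 160, 229, 163 and 136 CPM, and its log2 ratio of the combination to vehicle was -0.24 (-0.68 to 0.22). Flt3 stood at 97.1, 185, 139 and 126 CPM, with log2 ratios to vehicle of 0.93 (0.22 to 1.64), 0.52 (-0.03 to 1.1) and 0.38 (-0.16 to 0.94). Flt3 was thus higher in ORIN1001 than in vehicle over all selected cells, at a ratio under 2-fold whose interval reaches past 2-fold. Among cells without pDC genes Flt3 was detected in 58.3%, 55.6%, 48.4% and 38.5%, so ORIN1001 was not above vehicle in that share. Without cells with pDC genes Clec10a in the combination was lower than vehicle by -0.88 (-1.42 to -0.34). Mgl2, a lectin related to Clec10a, was at 97.1, 164, 88.8 and 131 CPM, and 1 cell held 70% of its ORIN1001 UMIs. Without cells with pDC genes Mgl2 in the combination was higher than vehicle by 0.65 (0.09 to 1.25). Cd209d, a paralogue of Cd209a, was at 18.4, 87.2, 157 and 137 CPM, and was higher than vehicle by 3.1 (2.01 to 4.44) in docetaxel and 2.9 (1.82 to 4.24) in the combination. Leaving out cells with pDC genes, those 2 ratios were 2.09 (0.71 to 3.81) and 2.14 (0.81 to 3.83). Reads shared between such paralogues could have been split in the authors' counting.

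Ly6c2, the monocyte surface antigen that pDCs carry as well, was higher outside vehicle among the 103 cells without pDC genes. It was at 67.3, 847, 291 and 697 CPM and was detected in 5 of 24, 4 of 9, 17 of 31 and 22 of 39 cells. The combination exceeded vehicle by 3.37 (2.77 to 4.04) and docetaxel exceeded vehicle by 2.11 (1.47 to 2.82). In ORIN1001 1 cell held 56.8% of the Ly6c2 UMIs. When each cell was thinned to 5000 UMIs, the shares with Ly6c2 went from 20.8%, 44.4%, 54.8% and 56.4% to 17.4%, 50%, 41.9% and 48.6%. Ly6c2 was detected in 12.5% of neutrophils and 12.8% of macrophages, and in 41.5% of T cells, so it does not mark monocytes alone.

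MHC class II genes were lower outside vehicle over all selected cells, and less so without the cells with pDC genes. Of 11 counted genes, 10, 9 and 10 were lower in ORIN1001, docetaxel and the combination than in vehicle, with median log2 ratios of -0.33, -0.45 and -0.42; 1, 0 and 0 of them were past 2-fold. Cd74 was at 29500, 19800, 20700 and 20300 CPM, and H2-Eb1, a class II beta chain, at 9490, 6290, 5770 and 5930 CPM. Among the 103 cells without pDC genes the 3 medians were -0.1, -0.25 and -0.18, and Cd74 was at 32200, 25200, 26000 and 25700 CPM. The selection used H2-Aa and H2-Ab1, which belong to this list.

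MHC class I presentation genes were slightly higher in the combination. All 16 counted genes were above vehicle there, with a median of 0.33 and none past 2-fold, against 0.22 for all counted genes. Tap1, the peptide transporter, was at 186, 223, 176 and 274 CPM and differed from vehicle by 0.55 (0.17 to 0.95) and from docetaxel by 0.63 (0.33 to 0.95) in the combination. Psmb9, an immunoproteasome subunit, stood at 370, 382, 410 and 487 CPM. The difference was no smaller when cells with pDC genes were left out, at a median of 0.4.

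Costimulatory and inhibitory ligands had medians below vehicle in the 3 treated libraries over all selected cells, and part of this was lost without the cells with pDC genes. In ORIN1001 8 of 10 counted genes were below vehicle, 5 of them past 2-fold, with a median of -0.98. Docetaxel had 7 of 10 below vehicle (4 past 2-fold, median -0.57) and the combination 8 of 11 (4 past 2-fold, median -0.32), beside medians of all genes of 0.15 and 0.22. Among the 103 cells without pDC genes the docetaxel median was -0.3, with 5 of 10 below vehicle, and the combination median was -0.23, with 6 of 11 below. In cells low in monocyte and macrophage genes the docetaxel median turned to 0.09. Cd83, a surface marker of dendritic cell activation, was at 347, 43.6, 164 and 86.6 CPM and was detected in 20, 3, 23 and 20 cells. It was highest in vehicle and lowest in ORIN1001, with log2 ratios to vehicle of -2.99 (-4.23 to -1.97), -1.08 (-1.45 to -0.71) and -2.0 (-2.41 to -1.6).

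Cd86 and Cd274 were also highest in vehicle. Cd86 was at 270, 98.1, 205 and 96.5 CPM, and the combination lay below docetaxel by -1.09 (-1.47 to -0.71). Cd274, which encodes the inhibitory ligand PD-L1, was at 163, 38.2, 68.3 and 34.5 CPM, with a log2 ratio of the combination to vehicle of -2.24 (-2.88 to -1.62). Tnfsf9, the ligand of 4-1BB, was at 137, 32.7, 28.7 and 18.7 CPM, found in 12 of 27, 3 of 12, 10 of 53 and 8 of 66 cells. Cd40, the receptor for T cell help, did not follow them, at 110, 104, 131 and 111 CPM. Cells with pDC genes hold little of Cd86, but without them the combination was still below vehicle in Cd83 (-1.76), Cd86 (-1.12), Cd274 (-1.89) and Tnfsf9 (-2.45). Cd274 was nevertheless detected in 33.3%, 22.2%, 32.3% and 43.6% of those cells, most often in the combination, and 1 vehicle cell held 39.3% of its vehicle UMIs. Under the thinning to 2000 UMIs the Tnfsf9 ratio of the combination to vehicle was 0.24. For a ratio 3 counts stand in for a count of 0, so this sign need not mean more Tnfsf9 in the combination. In docetaxel without those cells Cd86 differed from vehicle by 0.04 (-0.33 to 0.42).

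Of the genes with the largest ratios, 4 more were highest in vehicle. Nr4a2, an orphan nuclear receptor of the immediate early class, was at 134, 10.9, 32.8 and 20.7 CPM and was detected in 13 of 27, 2 of 12, 10 of 53 and 11 of 66 cells. Nfkbid, a nuclear inhibitor of NF-kappaB, was at 142, 65.4, 67.0 and 25.6 CPM and was detected in 55.6%, 58.3%, 41.5% and 28.8% of cells. Tbc1d4, a regulator of vesicle traffic, was at 131, 10.9, 60.1 and 23.6 CPM. The 3 log2 ratios of the combination to vehicle were -2.7 (-3.5 to -1.94), -2.47 (-3.2 to -1.77) and -2.47 (-3.24 to -1.74). Grasp, a scaffold protein gene, was at 352, 21.8, 180 and 83.7 CPM, with a log2 ratio of ORIN1001 to vehicle of -4.01 (-5.91 to -2.62). Without cells with pDC genes Grasp was detected in 66.7%, 44.4%, 61.3% and 51.3% of cells. Thinning every cell to 2000 UMIs left 11, 3, 13 and 7 cells. The ratio to vehicle was then 0.14 for Grasp and 1.87 for Nr4a2 in ORIN1001, and 0.65 for Nr4a2 and 0.24 for Tbc1d4 in the combination. At so few UMIs the 3 counts that stand in for 0 can set the sign, so these values are not read as a change of direction.

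Type I interferon response genes were higher in docetaxel than in vehicle and lower again in the combination. All 19 counted genes were above vehicle in docetaxel, 5 of them past 2-fold, with a median of 0.64 against 0.15 for all genes. In the combination 11 of 20 were above vehicle, with a median of 0.01, and 19 of 20 were below docetaxel, 5 past 2-fold, with a median of -0.47. In ORIN1001 11 of 14 were below vehicle, with a median of -0.61. For the 103 cells without pDC genes the 4 medians, for ORIN1001, docetaxel and the combination to vehicle and the combination to docetaxel, were -0.55, 0.98, 0.19 and -0.52.

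These medians depended on a few cells. Without the 14 selected cells that held 20 or more neutrophil marker UMIs (4, 2, 3 and 5 cells), a choice made after the data were seen, the docetaxel median was 0.05 and that of the combination to docetaxel was -0.26. Neutrophils had the highest summed level of the list, at 8480, 13300, 18200 and 21600 CPM, against 4630, 4620, 7830 and 6050 CPM in the Cd209a-selected cells. The neutrophil markers include Il1r2, which is also in the wider type 2 list. It was at 281, 107 and 53.3 CPM in cells low in both, with monocyte genes and with pDC genes. How many of the 14 cells reached 20 UMIs through Il1r2, and the part of neutrophil RNA in the result, were not tested. Counted per cell, the median was 24.5, 28.1, 74.6 and 56.9 list UMIs per 10000 UMIs of the cell, so the median combination cell lay above the median vehicle cell while the summed ratio was near 0. The highest vehicle cell reached 320 UMIs per 10000. Cells with pDC genes had medians of 68.8, 44.5, 92.7 and 64.5, and those without had 23.9, 25.8, 49.3 and 37.6.

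Single genes of the list differed in this. Ifi27l2a, an interferon-induced gene found in 20 of 27, 11 of 12, 51 of 53 and 63 of 66 cells, was at 798, 1410, 1770 and 1550 CPM. It was higher than vehicle by 0.82 (0.57 to 1.06), 1.15 (0.97 to 1.34) and 0.95 (0.78 to 1.14), and no cell held over 27.9% of its UMIs. Ifit1, which binds viral RNA, was at 105, 32.7, 179 and 79.7 CPM, and the combination lay below docetaxel by -1.17 (-1.58 to -0.76). Ifit3 stood at 113, 60, 124 and 58.1 CPM, with -1.1 (-1.6 to -0.61) for the same comparison. Isg15, a ubiquitin-like modifier, was at 706, 382, 746 and 603 CPM, and docetaxel differed from vehicle by 0.08 (-0.13 to 0.3).

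Bst2, or tetherin, is both interferon-induced and a pDC marker. It was at 851, 1160, 1990 and 1640 CPM over all selected cells, 1.22 (1.05 to 1.4) above vehicle in docetaxel. In the cells without pDC genes it was at 509, 427, 565 and 569 CPM, and that ratio was 0.15 (-0.13 to 0.43). In the same cells the median Bst2 level per cell was 179, 178, 368 and 349 CPM, so the median docetaxel cell was above the median vehicle cell, and 1 vehicle cell held 65 of the 174 vehicle UMIs. Cmpk2, a mitochondrial nucleotide kinase, stood at 13.1, 10.9, 150 and 47.3 CPM, and 1 cell held 74.5% of the docetaxel UMIs.

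The interferon-stimulated response element is the DNA element through which the factor ISGF3 acts at many of these genes, and the windows printed here show where its core letters lie in genes named above. The motif searched was GAAANNGAAA on both strands (TTTCNNTTTC when read on the printed strand), with overlapping matches counted, in the 250 bases before the RefSeq start site on GRCm38.p6. Of 16 list genes in the promoter table, 9 held it, and of 32851 promoters 978 (2.98%) did. Each line gives the 200 bases before the start site, 5′ to 3′ on the gene's strand, with the matches in capitals.
Ifit1, chr19:34640689-34640888, plus strand: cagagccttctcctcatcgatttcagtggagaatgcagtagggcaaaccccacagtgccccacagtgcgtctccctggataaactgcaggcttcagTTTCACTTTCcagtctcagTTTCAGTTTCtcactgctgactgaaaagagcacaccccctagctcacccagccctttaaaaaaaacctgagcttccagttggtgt
Ifit3, chr19:34583329-34583528, plus strand: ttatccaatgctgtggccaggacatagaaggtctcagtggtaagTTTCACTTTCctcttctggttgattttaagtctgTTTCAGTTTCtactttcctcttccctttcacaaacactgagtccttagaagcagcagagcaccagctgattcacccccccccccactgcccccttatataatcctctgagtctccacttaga
Isg15, chr4:156200819-156201018, minus strand: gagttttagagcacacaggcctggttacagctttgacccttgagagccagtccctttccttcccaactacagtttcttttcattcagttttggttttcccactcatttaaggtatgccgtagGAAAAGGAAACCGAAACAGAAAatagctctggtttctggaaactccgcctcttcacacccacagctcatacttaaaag
Bst2, chr8:71537473-71537672, minus strand: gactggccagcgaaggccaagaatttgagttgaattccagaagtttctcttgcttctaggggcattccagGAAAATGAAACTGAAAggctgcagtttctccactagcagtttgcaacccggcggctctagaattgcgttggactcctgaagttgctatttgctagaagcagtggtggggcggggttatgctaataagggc

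Ifit1 and Ifit3 each have 2 separate matches on the strand opposite to the gene, 3 overlapping matches make up the run in Isg15, and 2 overlapping matches make up the run in Bst2. Ifit2, Oasl1, Oasl2, Irf7, Ifi44, Xaf1 and Cmpk2 have no match to these letters in this window. A match describes the sequence and was not measured as a site. Bst2 and Isg15 carry the motif and yet differed from Ifit1 in the ratios given above, and no test related the motif to the ratios.

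Interferon-gamma response genes had few counted members. In docetaxel 9 of 11 were above vehicle (4 past 2-fold, median 0.53), and in the combination 12 of 15 (5 past 2-fold, median 0.46). In ORIN1001 4 of 5 were below (3 past 2-fold, median -1.24). Counted per cell, the median was 7.3, 9.85, 7.45 and 10.2 list UMIs per 10000 UMIs of the cell. Without cells with pDC genes it was 6.1, 6.3, 6.13 and 13.5. The median docetaxel cell was thus close to the median vehicle cell, and the median ORIN1001 cell was not below it. The highest cells reached 116, 23.8, 226 and 152. Socs1, a feedback inhibitor of cytokine signalling, was at 23.6, 21.8, 79.2 and 33.5 CPM, highest in docetaxel with a log2 ratio to vehicle of 1.75 (0.72 to 2.95). Gbp3, a guanylate-binding protein, was at 21.0, 27.3, 27.3 and 55.1 CPM, highest in the combination. For the T cell attractant Cxcl9, 7, 1, 6 and 13 cells held UMIs and 1 cell held 63.2% of the docetaxel total.

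**Figure D4:**
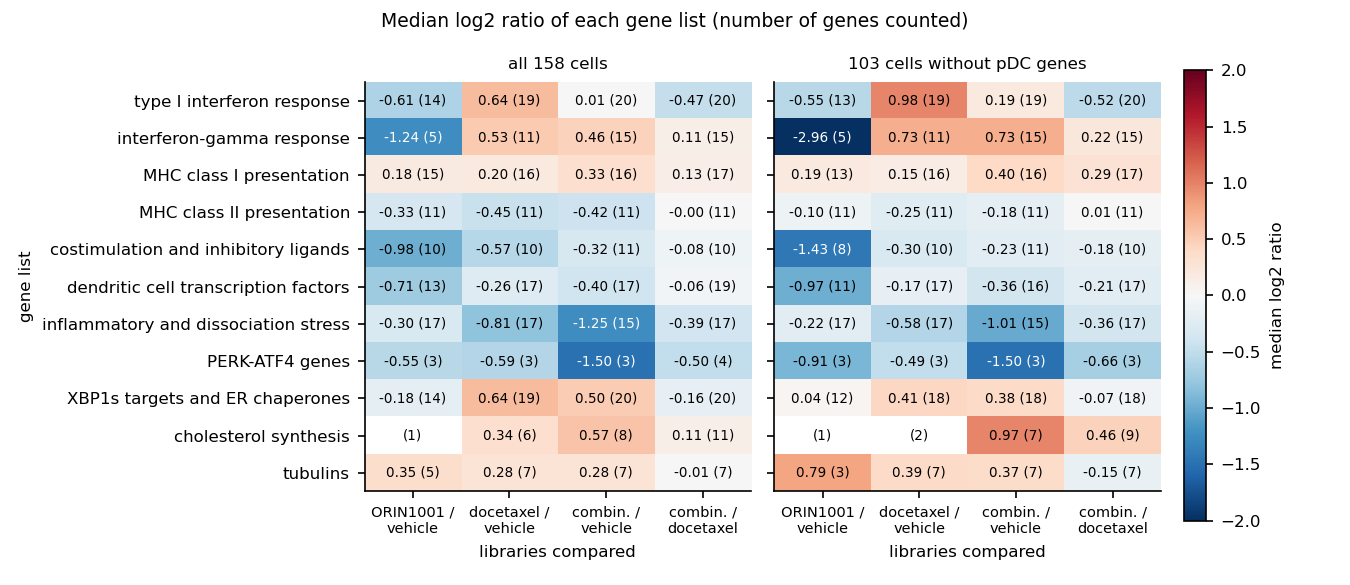
Median log2 ratio of each gene list (rows) in each comparison (columns), for all 158 Cd209a-selected cells (left) and for the 103 without pDC genes (right), with the number of genes counted in brackets and no colour under 3 genes. The type I interferon list is positive in docetaxel to vehicle and negative in combination to docetaxel in both panels, and the stress list is negative throughout.

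Genes of inflammation and of the stress of tissue dissociation were lower in both docetaxel-treated libraries. In docetaxel 14 of 17 were below vehicle (6 past 2-fold, median -0.81) and in the combination 15 of 15 (9 past 2-fold, median -1.25). ORIN1001 had 12 of 17 below (3 past 2-fold, median -0.3), and 15 of 17 were lower in the combination than in docetaxel (3 past 2-fold, median -0.39). With cells with pDC genes left out, the medians to vehicle were -0.22, -0.58 and -1.01. Per cell, the median was 174, 125, 97.3 and 74.2 list UMIs per 10000, and the lowest vehicle cell, at 59.2, lay within the range of every other library.

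Atf3, a stress-induced transcription factor, was at 1070, 360, 422 and 293 CPM, with log2 ratios to vehicle of -1.57 (-1.96 to -1.19), -1.34 (-1.55 to -1.12) and -1.86 (-2.08 to -1.64). Egr1, an immediate early factor, stood at 1200, 1120, 359 and 346 CPM, so ORIN1001 was close to vehicle and the others were not. Tnf, the cytokine, was at 228, 196, 60.1 and 47.3 CPM. Il1b, which encodes interleukin-1 beta, was at 2180, 1960, 1480 and 710 CPM, and without cells with pDC genes docetaxel stood at 2130 CPM beside 2190 CPM in vehicle and 821 CPM in the combination. Jun was not among them, at 1180, 1420, 1340 and 1120 CPM.

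Neutrophils, which carry the stress list at 45600, 41700, 47000 and 49200 CPM, were a smaller part of the docetaxel and combination libraries. Neutrophil markers in the selected cells summed to 3460, 7370, 426 and 465 CPM, all 10 markers were detected, and none was at 0. These sums rest on few cells. The median cell held 2, 1, 0 and 0 UMIs of the markers and the highest cell 510, 969, 136 and 143. In ORIN1001 that 1 cell held most of them. Among cells without pDC genes the sums were 2370, 83.9, 355 and 255 CPM. Without the 14 cells rich in those markers the stress median of the combination to vehicle was -1.19. In macrophages the same list was at 13300, 8300, 7810 and 6590 CPM and in T cells at 11600, 7700, 8210 and 5530 CPM, so vehicle was highest in those classes also. The part of neutrophil RNA and of handling in this difference was not tested.

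**Figure D5:**
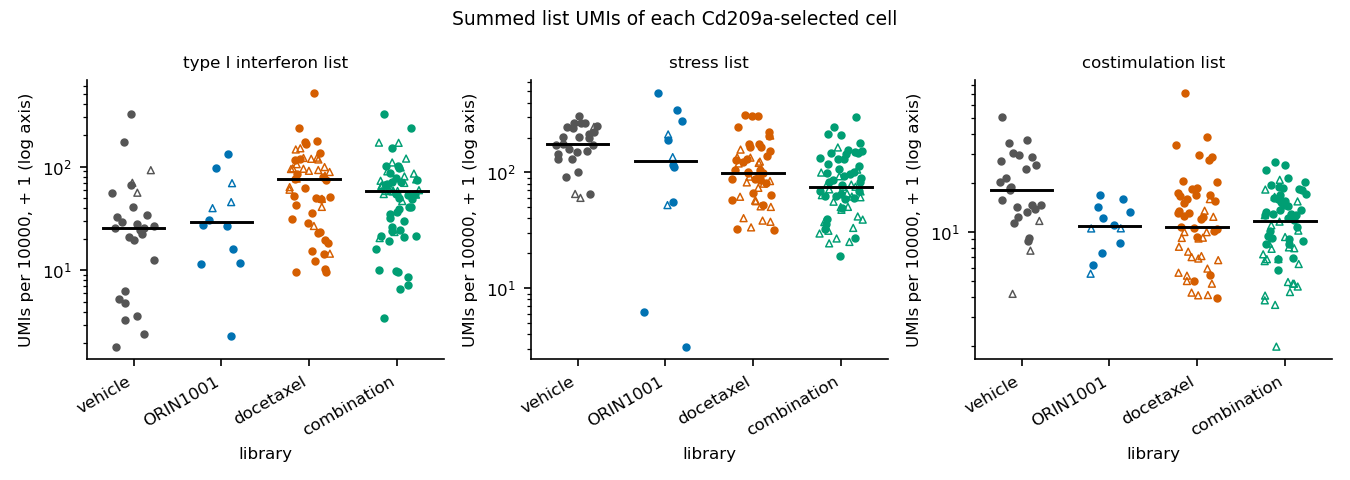
Summed UMIs of the type I interferon, stress and costimulation lists per 10000 UMIs of each cell, plus 1 (log axis), by library, with black lines at the medians and open triangles for cells with pDC genes. Median interferon-list UMIs are 24.5, 28.1, 74.6 and 56.9, and median stress-list UMIs are 174, 125, 97.3 and 74.2, with broad overlap of the cells between libraries.

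The targets of spliced Xbp1 and the ER chaperones, genes downstream of the enzyme that ORIN1001 inhibits, had a median in ORIN1001 close to that of all genes. In ORIN1001 9 of 14 were below vehicle, none of them past 2-fold, and 1 was past 2-fold above it, and the median of -0.18 stood beside -0.14 for all genes. In docetaxel 18 of 19 were above vehicle (5 past 2-fold, median 0.64) and in the combination 17 of 20 (3 past 2-fold, median 0.5). Between the combination and docetaxel 16 of 20 were lower with none past 2-fold, at a median of -0.16. Among cells without pDC genes the 4 medians were 0.04, 0.41, 0.38 and -0.07. Cells with pDC genes held 91.3 list UMIs per 10000 in the median docetaxel cell, against 48.7 in the other docetaxel cells.

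Xbp1 was at 181, 382, 424 and 385 CPM, higher than vehicle by 1.07 (0.57 to 1.58), 1.23 (0.85 to 1.62) and 1.09 (0.72 to 1.48). Counts from the 3′ end cannot tell spliced from unspliced Xbp1. For cells without pDC genes those ratios were 1.01, 0.45 and 0.73. Hspa5, the chaperone BiP, was at 683, 425, 880 and 788 CPM, and ORIN1001 lay below vehicle by -0.68 (-1.07 to -0.31). Dnajb11, a cofactor of BiP, was at 78.8, 136, 179 and 182 CPM. Herpud1, a component of ER-associated degradation, stood at 244, 142, 348 and 214 CPM, and the combination was below docetaxel by -0.71 (-0.97 to -0.44). Ppp1r15a, the phosphatase subunit that ends the PERK response, was at 375, 256, 250 and 133 CPM.

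Ddit4, an inhibitor of mTORC1 that is induced by stress and glucocorticoids, was higher in both docetaxel-treated libraries, with and without the cells with pDC genes. It was at 39.4, 49.1, 191 and 342 CPM and was detected in 8 of 27, 4 of 12, 26 of 53 and 46 of 66 cells. Vehicle and ORIN1001 were low. The log2 ratios to vehicle were 2.28 (1.51 to 3.16) in docetaxel and 3.12 (2.37 to 3.97) in the combination, and 0.84 (0.55 to 1.13) between them. Without cells with pDC genes the 3 ratios were 2.83 (2.0 to 3.78), 3.21 (2.41 to 4.14) and 0.38 (0.07 to 0.7). Dok2, an adaptor that restrains kinase signals, was at 7.88, 60, 94.3 and 39.4 CPM. Timp1, an inhibitor of matrix proteases, was at 7.88, 76.3, 28.7 and 77.8 CPM, from 2, 2, 11 and 12 cells. In ORIN1001 1 cell held 81.8% of the Dok2 UMIs and 71.4% of the Timp1 UMIs.

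Some of the largest ratios to vehicle went with the pDC-gene cells. Lefty1, a secreted member of the TGF-beta family, was at 13.1, 109, 139 and 142 CPM and found in 4, 3, 24 and 30 cells, of which 1, 0, 5 and 5 were without pDC genes. Cd8a, which mouse dendritic cells including pDCs can carry, was at 28.9, 174, 363 and 209 CPM, and it was found in 1 of the 71 cells with monocyte genes and in 0 of the 32 low in both. Mzb1, an ER protein of plasma cells and pDCs, was at 5.25, 54.5, 113 and 74.8 CPM. In ORIN1001 1 cell held 62.5% of the Cd8a UMIs and 60% of the Mzb1 UMIs.

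Between the combination and docetaxel Cd69, an early activation antigen, differed in many cells. It was at 108, 92.7, 231 and 64.0 CPM and was detected in 13 of 27, 5 of 12, 35 of 53 and 27 of 66 cells. Docetaxel was the highest library, and the combination lay below it by -1.85 (-2.29 to -1.43), or by -1.41 (-2.02 to -0.82) without cells with pDC genes. Hspa1a, the inducible cytosolic heat shock protein, had the largest ratio, at 42.0, 632, 183 and 3.94 CPM and -5.54 (-7.44 to -4.15). It was found in 7, 2, 19 and 3 cells, and 1 ORIN1001 cell held 99.1% of that library's UMIs. Hspa1b stood at 44.6, 665, 161 and 8.86 CPM, with 99.2% of the ORIN1001 UMIs in 1 cell, and since Hspa1a and Hspa1b are near-identical neighbours, their reads could have been shared. Fasn, the fatty acid synthase, was at 21.0, 54.5, 19.1 and 50.2 CPM, higher in the combination than in docetaxel by 1.39 (0.52 to 2.36).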

How the data were processed

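The deposited matrices hold raw UMI counts per gene and barcode for cells called by Cell Ranger 5.0.1, per the file headers. Per the submitters' processing notes, Cell Ranger, Seurat 4.0.1 and mm10 were used. Barcodes with at least 200 genes and under 10% mitochondrial UMIs were kept. The UMIs of the selected cells were summed per library, and log2 ratios of CPM carry exact 95% intervals of a ratio of 2 Poisson counts. Shares carry Clopper-Pearson intervals. For a ratio, 3 counts stood in for 0. The libraries held 86383509, 64257802, 78746915 and 81375538 UMIs in 10362, 8839, 8464 and 9109 barcodes.

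The members and gene lists were chosen with earlier results of these data known. Genes were named by a rule: in each comparison the 8 largest higher and 8 largest lower ratios past 2-fold, reaching 30 UMIs and 50 CPM where the gene was higher, an interval off 0 and at least 0.25 of the CPM over all cells, plus up to 4 genes per list and the marker genes. Genes the selection reads were left out of it. The limits for pDC genes, for neutrophil marker cells and for single-cell dominance (50%) were set after values were seen. Doublets stayed in. As an alternative they were called with Scrublet in Scanpy 1.11.5, which marked 2.0%, 0.0%, 1.27% and 1.82%. For ORIN1001 the top 7.01% by score were removed instead. Python 3.11.15, NumPy 2.4.6, SciPy 1.17.1, pandas 2.3.3 and matplotlib 3.10.9 were used, with the code tested on simulated data. Sequences come from RefSeq. Some genes of the lists are not reported here.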

Additional observations from a re-analysis of the deposited data

How the results depend on the processing

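No paired analysis was possible because each group held 1 library. Of 40 values of the share of cells under other settings, 36 kept direction and size. Among cells low in monocyte and macrophage genes the log2 ratio of the share to vehicle was 0.01 in docetaxel and 0.06 in the combination. With every cell thinned to 2000 UMIs only 11, 3, 13 and 7 cells met the selection, and the ratio became -0.33 for the combination to vehicle and -0.96 for the combination to docetaxel. The 188, 331, 390 and 137 genes past 2-fold (ORIN1001, docetaxel and combination to vehicle, combination to docetaxel) became 24, 11, 9 and 11 after thinning and 861, 1065, 1093 and 635 with a minimum of 10 UMIs. Among cells low in monocyte genes the docetaxel and combination counts were 102 and 151, and without cells with pDC genes 167 and 200. Under the same thinning Grasp (0.14) and Nr4a2 (1.87) turned for ORIN1001, Cd59a (-1.83), Cd8a (-0.83), Dok2 (-0.83) and Lefty1 (-0.83) for docetaxel, Tnfsf9 (0.24), Nr4a2 (0.65) and Tbc1d4 (0.24) for the combination, and Hspa1a (0.48) between the combination and docetaxel. Among cells low in monocyte genes Dok2 (-1.44), the costimulation list (0.09) and the cytokine list (0.95) turned for docetaxel, Pir (-0.34) for the combination, and Timp1 (-1.07) between the combination and docetaxel. The type I interferon list turned for ORIN1001 in cells with Flt3 or Zbtb46 (0.1). The cytokine list of 4 genes turned for the combination with Cd209a at 1 UMI or more (0.35) and at 3 or more (0.01), and Pir without cells with pDC genes (-1.0). For these the cause was not tested, except that thinning left few cells. Since 3 counts stood in for 0 in a ratio, a gene that turned under thinning can owe its sign to a count of 0. Such a turn need not be a change of direction. Under doublet removal, a mitochondrial limit of 5%, median-of-ratios scaling and equal weight for every cell, no share, count, list or named gene in these tables turned. The settings without pDC-gene cells or without cells of 20 neutrophil marker UMIs were chosen after seeing the data.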

Other observations

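Ccl4, an inflammatory chemokine, was at 445, 747, 414 and 84.9 CPM in vehicle, ORIN1001, docetaxel and combination cells without pDC genes, and the combination lay below docetaxel by -2.28 (-2.73 to -1.86), while over all 158 cells it was at 441, 627, 810 and 492 CPM. In ORIN1001 1 cell held 55.1% of the Ccl4 UMIs of cells without pDC genes. Cxcl10, a ligand of CXCR3, was at 272, 15.3, 954 and 309 CPM in the same cells, found in 5, 2, 11 and 10 of them, with -1.63 (-1.87 to -1.39) for the combination to docetaxel, and 1 vehicle cell held 83.9% of the vehicle Cxcl10 UMIs. Ccl5 in the combination came from 1 cell for 74.7% of its UMIs.

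Mki67 or Top2a, genes of dividing cells, were detected in 6, 1, 7 and 10 of the 158 Cd209a-selected cells, or 24 (15.2%) in all. In summed UMIs, cholesterol synthesis genes were above vehicle in the combination in 8 of 8 counted members (median 0.57, none past 2-fold). Without cells with pDC genes 7 of 7 were above it (median 0.97). The median cell did not follow these ratios, at 4.66 list UMIs per 10000 in vehicle and 3.08 in the combination. Without cells with pDC genes those medians were 3.93 and 3.81. The highest vehicle cell reached 28.2 and the highest combination cell 44.3. The part of single cells in the summed ratios was not tested.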
